A study of Mus musculus with 4 samples.

Results

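Cytochrome c oxidase is complex IV of the mitochondrial respiratory chain, the enzyme that passes electrons from cytochrome c to oxygen. The 10 nuclear genes described encode subunits of this enzyme, and their transcripts were measured in mouse epididymal white fat during treatment with a β3-adrenergic agonist. The members were the probe sets whose only gene symbol in the array's annotation was one of the 10 names, which gave 15 probe sets for 10 genes, out of 12422 probe sets and 8251 genes. Cox6a2, Cox7a1 and Cox8b were treated as the muscle and brown fat isoforms. Cox4i1, Cox5a, Cox5b, Cox6a1, Cox6c, Cox7a2 and Cox8a were treated as the 7 ubiquitous subunits.

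The core subunits of the enzyme are encoded in mitochondrial DNA, and the nuclear genes described here encode smaller subunits around that core. Several of these small subunits exist in a form found in most tissues and a form found in heart, skeletal muscle or brown fat. White fat cells hold fewer mitochondria than brown fat cells. Stimulation of their β3-adrenergic receptor is known to raise brown fat genes in some of them, and Cox7a1 and Cox8b are in common use as markers of that change.

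The 4 groups were male C57 BL6 mice aged 3 to 4 months: a control group, and groups given CL 316243, a selective β3-adrenergic agonist, at 3 nmol/hr over 1, 3 or 6 days of dosing. A group was 1 array hybridized with pooled RNA from epididymal white fat, so there was no replicate check and no test, and every value below compares single pools. The titles of 2 arrays spell the compound's number 316234, and the sample descriptions 316243, which is used here. The sources used here do not give the number of mice in a pool, the route of dosing or the handling of the control mice. On the 4 arrays, 14 of 14 measured white fat cell markers were above the floor of 174 intensity units, below which values were not read as levels.

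Intensities are given on the linear scale after scaling. A gene was counted as higher or lower when 2 arrays differed in it by 2-fold or more once values were raised to the floor, and a fold against an array below the floor is a lower bound. As a measurement error, the log2 changes of 2 probe sets of the same gene were compared. This used 734 genes with 2 probe sets above the floor on every array. The SD per probe set was 0.41 (day 1 against control), 0.30 (day 3 against control) and 0.30 (day 6 against control). This error holds no variation between animals or pools, and it does not cover a gene below the floor on an array.

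Promoter sequences of the pair of isoform genes that rose, Cox8b and Cox7a1, are shown beside those of the ubiquitous genes Cox7a2, the partner of Cox7a1, and Cox6a1, so that their base composition can be compared. They are the 250 bases before the annotated start from RefSeq (GRCm38.p6), 5′ to 3′ on the gene's strand, at chr7:140900447-140900696 (minus strand) for Cox8b, chr7:30183921-30184170 (plus) for Cox7a1, chr9:79759854-79760103 (minus) for Cox7a2 and chr5:115348959-115349208 (minus) for Cox6a1. Capitals mark the E-box CAGCTG in Cox8b, and in Cox6a1 the NRF1 core motif CGCANGCG and the GABP motif CCGGAAG, on either strand. NRF1 and GABP are transcription factors known for driving nuclear genes of the respiratory chain.
Cox8b: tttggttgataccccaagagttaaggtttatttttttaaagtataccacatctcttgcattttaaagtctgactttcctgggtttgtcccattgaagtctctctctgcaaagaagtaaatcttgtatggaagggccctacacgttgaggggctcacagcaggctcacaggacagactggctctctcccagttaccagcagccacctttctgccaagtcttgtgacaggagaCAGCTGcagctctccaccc
Cox7a1: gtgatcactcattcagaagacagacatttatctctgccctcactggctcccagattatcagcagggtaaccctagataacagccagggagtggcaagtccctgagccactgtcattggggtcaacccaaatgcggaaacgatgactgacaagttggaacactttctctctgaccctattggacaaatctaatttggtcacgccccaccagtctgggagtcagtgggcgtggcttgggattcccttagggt
Cox7a2: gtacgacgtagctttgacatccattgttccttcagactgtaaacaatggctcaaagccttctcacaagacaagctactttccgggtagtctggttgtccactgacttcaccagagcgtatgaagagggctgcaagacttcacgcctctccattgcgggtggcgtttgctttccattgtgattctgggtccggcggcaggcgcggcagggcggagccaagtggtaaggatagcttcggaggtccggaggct
Cox6a1: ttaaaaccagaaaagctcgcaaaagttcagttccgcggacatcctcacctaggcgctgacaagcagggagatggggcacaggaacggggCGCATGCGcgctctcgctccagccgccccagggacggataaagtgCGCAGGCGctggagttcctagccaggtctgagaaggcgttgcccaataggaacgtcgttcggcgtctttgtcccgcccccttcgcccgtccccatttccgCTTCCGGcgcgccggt

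The isoform promoters held 1 CpG dinucleotide in Cox8b and 4 in Cox7a1. The ubiquitous promoters held 11 in Cox8a, 14 in Cox7a2, 22 in Cox5b, 26 in Cox5a and 26 in Cox6a1, so the groups did not overlap among the 7 of 10 members matched by symbol, which leave out Cox4i1, Cox6a2 and Cox6c. Over the same 250 bases, the median of 32851 mouse promoters was 6, with quartiles of 2 and 16. Of these promoters, 7.87% held fewer CpG than Cox8b and 37.8% fewer than Cox7a1. The share was 64.4% for Cox8a, 70.6% for Cox7a2, 85.2% for Cox5b and 90.4% for Cox5a and Cox6a1. Cox7a1, Cox8a and Cox7a2 thus lay within the quartiles of all promoters.

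Letter matches were searched on both strands in windows of 300 bases, which add 50 bases after the start. Cox8b held TATAAA at 5 bases after the annotated start and CAGCTG at positions -19 and 17; TATAAA occurs in 13.6% of all promoter windows and CAGCTG in 16.3%. Cox6a1 held CGCANGCG at positions -161 and -116 and CCGGAAG at -16, against 8.21% and 8.86% of all windows. CCGGAAG was also in Cox8a, at -5 and 33. The Sp1 motif GGGCGG, in 35.7% of all windows, was in Cox5a, Cox6a1 and Cox7a2. Cox5b held AGGTCA, a nuclear receptor motif found in 16.3% of windows, at -145. AAGGTCA, which contains AGGTCA and is bound by estrogen-related receptors, and the cAMP response element TGACGTCA were in none of the 7 windows, against 4.72% and 1.79% of all windows. In Cox7a1 none of the 8 motifs searched was found. A match is only a match of letters.

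Cox8b encodes the heart, muscle and brown fat form of subunit VIII, a small membrane-spanning subunit. Its brighter probe set read 1002 on the control array, 815 at day 1, 9554 at day 3 and 15477 at day 6. The day 1 array was thus near control, and the day 3 and day 6 arrays stood far above both. Cox8b was 9.54-fold higher at day 3 and 15.4-fold higher at day 6 than control, log2 changes of 3.25 and 3.95, each over 10 times the measurement error. At day 1 its log2 change was -0.30, less than the error. Among 6254 genes above the floor on at least 1 array, the day 6 change of Cox8b ranked 1 and its day 3 change ranked 3 from the highest at the floor used. These ranks depend on the floor, since genes dim in control have only a bound: at the 25th percentile Cox8b ranked 3 at day 6 and 11 at day 3 of 7399 genes, and Cox7a1 stood above it with bounds of 4.04 and 4.06.

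The other probe set of Cox8b was dimmer and showed the same order of arrays. It read 304, 212, 1816 and 3715 on the control, day 1, day 3 and day 6 arrays. Its log2 changes against control were -0.52 at day 1, 2.58 at day 3 and 3.61 at day 6. The brighter probe set is of the array's r type, for which a rule of probe choice was dropped in the design, and the dimmer one is of the plain type. Most of the rise lay between day 1 and day 3, with a log2 change of 3.55 for the brighter and 3.10 for the dimmer probe set. Between day 3 and day 6 the change was 0.70 and 1.03, so the dimmer probe set alone passed 2-fold in that step.

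Cox7a1 encodes the heart, muscle and brown fat form of subunit VIIa. It read 56 on the control array, 317 at day 1, 967 at day 3 and 954 at day 6. The control value was below the floor, the day 1 value stood between control and the later days, and day 3 and day 6 differed by a log2 change of -0.02. Cox7a1 was at least 1.83-fold higher at day 1, at least 5.56-fold at day 3 and at least 5.49-fold at day 6 than control. Cox7a1 was among the 6254 genes only through its treated arrays. When the floor was raised to the 60th percentile of all values, 537 units, its bound at days 3 and 6 no longer reached 2-fold, with log2 changes of 0.85 and 0.83.

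Cox6a2 encodes the heart and skeletal muscle form of subunit VIa, which lies at the contact between the monomers of the enzyme. Its single probe set read -89, 31, 119 and -38 on the control, day 1, day 3 and day 6 arrays. All 4 values were below the floor, so no fold is given for Cox6a2 and nothing is read from the order of its values.

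**Figure D1:**
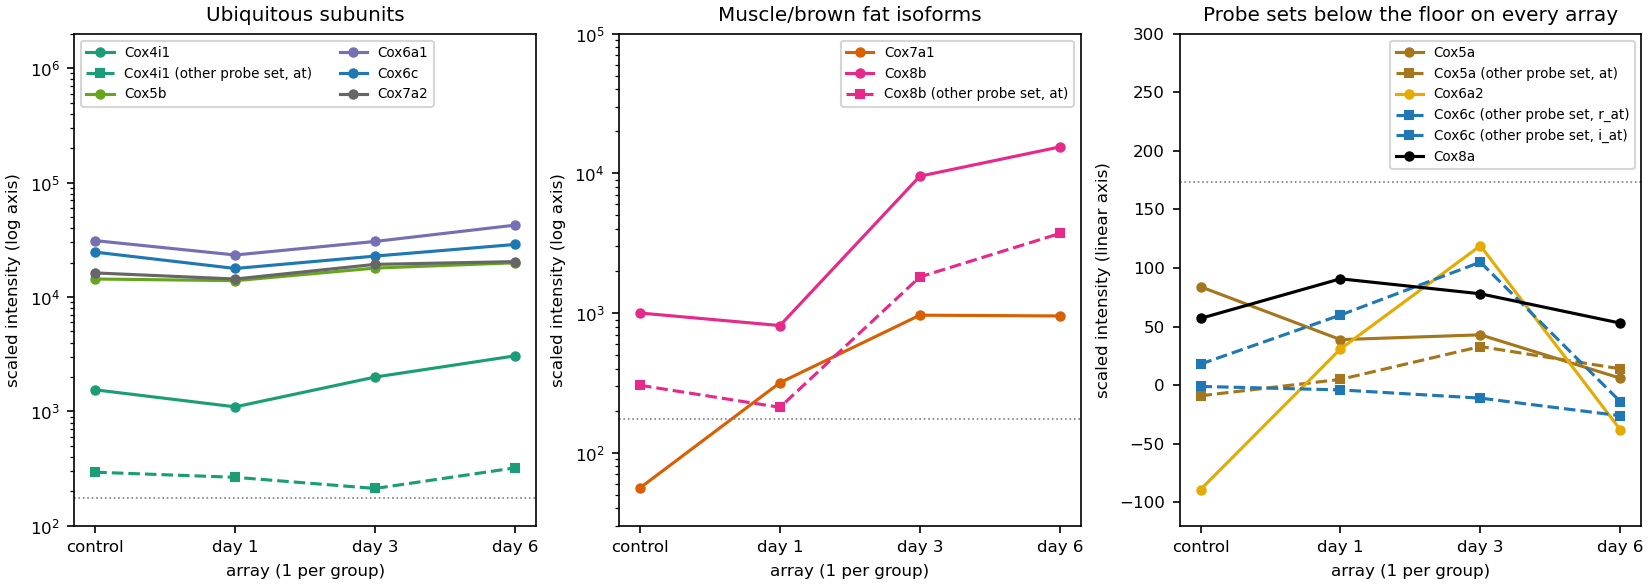
Scaled intensity of each member probe set on the control, day 1, day 3 and day 6 arrays, 1 array per group, with the floor of 174 as a dotted line. The left and middle panels have log axes and hold the ubiquitous subunits and the muscle and brown fat isoforms; the right panel has a linear axis and holds the probe sets below the floor on every array. Both Cox8b probe sets stand highest at day 6, and Cox7a1 is level between days 3 and 6.

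Of the 7 ubiquitous subunits, 5 gave values above the floor. Cox5a, subunit Va on the matrix side of the enzyme, had probe sets reading between -9 and 84. Cox8a, the ubiquitous form of subunit VIII, read 57, 91, 78 and 53 on the control, day 1, day 3 and day 6 arrays. These probe sets gave no level and no change. The planned comparisons of Cox8b with Cox8a and of Cox6a2 with Cox6a1 could therefore not be made, and Cox7a1 with Cox7a2 was the isoform pair of the 3 that could.

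Cox4i1 encodes the common form of subunit IV, the subunit known for inhibition of the enzyme by ATP. Its brighter probe set read 1544 in control, 1096 at day 1, 1997 at day 3 and 3060.0 at day 6, and was the lowest at day 1 and the highest at day 6. The log2 changes were -0.49, 0.37 and 0.99, the last being 3.26 times the measurement error and 1.98-fold. The other probe set read 294, 266, 212 and 321, and its day 6 change was 0.13. The brighter probe set is of the f type, whose probes match several members of a sequence family, so the probe sets of Cox4i1 do not give a common value for day 6.

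Cox5b, the zinc-binding subunit Vb on the matrix side, read 14368, 13896, 17902 and 19909 on the control, day 1, day 3 and day 6 arrays. Its log2 change was -0.05 at day 1, 0.32 at day 3 and 0.47 at day 6, the last being 1.56 times the error. Cox6a1, the ubiquitous form of subunit VIa, read 31100.5, 23296, 30597 and 42493, with log2 changes of -0.42, -0.02 and 0.45. Its single probe set is also of the f type, so other members of a sequence family may add to these values. Cox6a1 was thus lowest at day 1, near control at day 3 and highest at day 6.

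Cox6c, a small membrane-spanning subunit, read 24664, 17756, 22792 and 28804 on the same arrays by its bright f-type probe set. Its log2 changes were -0.47, -0.11 and 0.22, and its other 2 probe sets were below the floor on every array. Cox7a2, the ubiquitous form of subunit VIIa, read 16240.3, 14362, 19293 and 20387, with log2 changes of -0.18, 0.25 and 0.33. Apart from the bright probe set of Cox4i1 at day 6, each of these 5 subunits lay within 1.56 errors of control on every treated day.

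**Figure D2:**
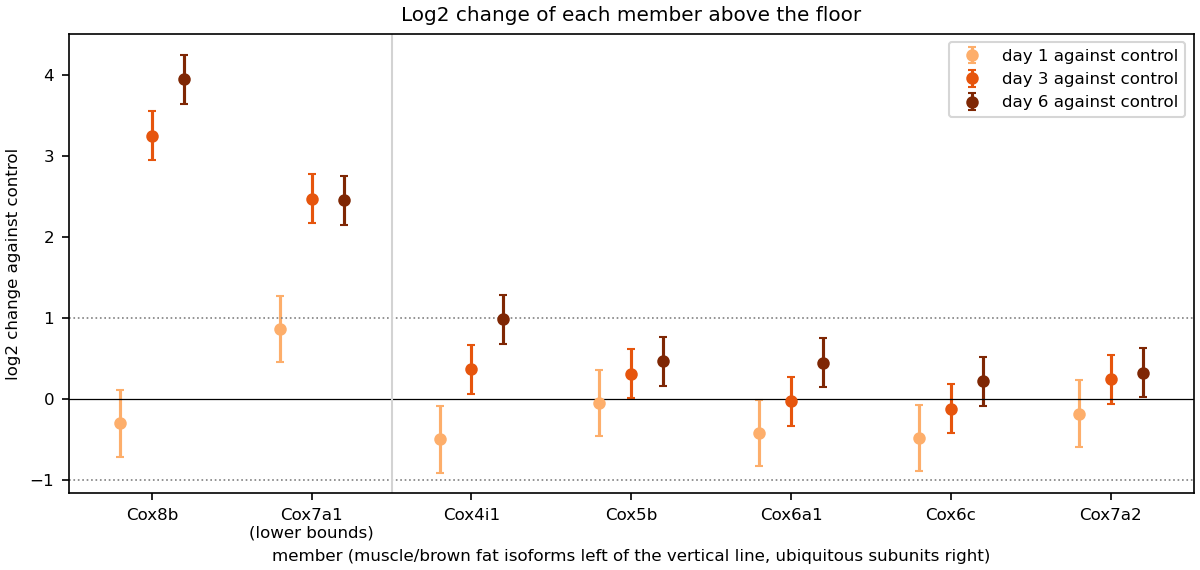
Log2 change against control of the 7 members above the floor at days 1, 3 and 6, with bars of 1 measurement error (SD between probe sets of a gene, 734 genes) and dotted lines at 2-fold. Cox8b and Cox7a1 pass 2-fold at days 3 and 6, and the 5 ubiquitous subunits stay within 2-fold on each day. The points of Cox7a1 are lower bounds, which the error does not describe.

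As a group, the ubiquitous subunits stayed within 2-fold. At day 1, 0 of 5 were at least 2-fold lower, against 8.36% of all genes, and 0 of 5 at least 2-fold higher, against 7.5%. Their median log2 change was -0.42, and that of all genes -0.02. All 5 had a log2 change below 0, as had 51.4% of all genes. At day 3, 3 of 5 were above 0, against 46.3% of all genes, with a median of 0.25 beside 0 for all genes. That count and median rest on the brighter probe set of Cox4i1: with the mean over probe sets Cox4i1 was at -0.05 and the median at -0.02. By the dimmest probe sets Cox4i1 was at -0.47 and the median at 0.11. That last median leaves out Cox6c, whose dimmest probe set was below the floor on every array. At day 6, 5 of 5 were above 0, against 46.8% of all genes, with a median of 0.45 beside 0. None of the 5 was at least 2-fold higher at day 3 (3.81% of all genes) or day 6 (1.73%), or at least 2-fold lower at day 3 (3.26%) or day 6 (1.63%). These comparisons share the control array, and its error enters each of them.

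Within the treated series, without the control array, all 5 ubiquitous subunits were higher at day 3 than at day 1, against 51.1% of all genes, with log2 changes of 0.36 to 0.87 by the brighter probe sets. The other probe set of Cox4i1, above the floor on every array, went the other way in that step, at -0.32. All 5 were again higher at day 6 than at day 3, against 49.4% of all genes, with changes of 0.08 to 0.62. The measurement error was 0.38 for the step from day 1 to day 3, and Cox5b and Cox6c changed by less. For the step from day 3 to day 6 it was 0.29, and Cox5b and Cox7a2 changed by less. None of the 5 was at least 2-fold higher in either step, against 5.84% and 1.5% of all genes.

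The muscle and brown fat isoforms above the floor went further. At day 1, at the floor used, 0 of 2 were at least 2-fold higher, against 7.5% of all genes. The 1.83-fold of Cox7a1 at day 1 is a lower bound, so whether it reached 2-fold is not known. At day 3, 2 of 2 were at least 2-fold higher, against 3.81% of all genes. At day 6, 2 of 2 were at least 2-fold higher, against 1.73% of all genes. Cox7a1 is in these counts only through its treated arrays, and both comparisons share the control array. In the step from day 1 to day 3, 2 of 2 were at least 2-fold higher, against 5.84% of all genes, at 11.7-fold for Cox8b and 3.04-fold for Cox7a1. From day 3 to day 6, 0 of 2 passed 2-fold by the brighter probe sets, against 1.5% of all genes.

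**Figure D3:**
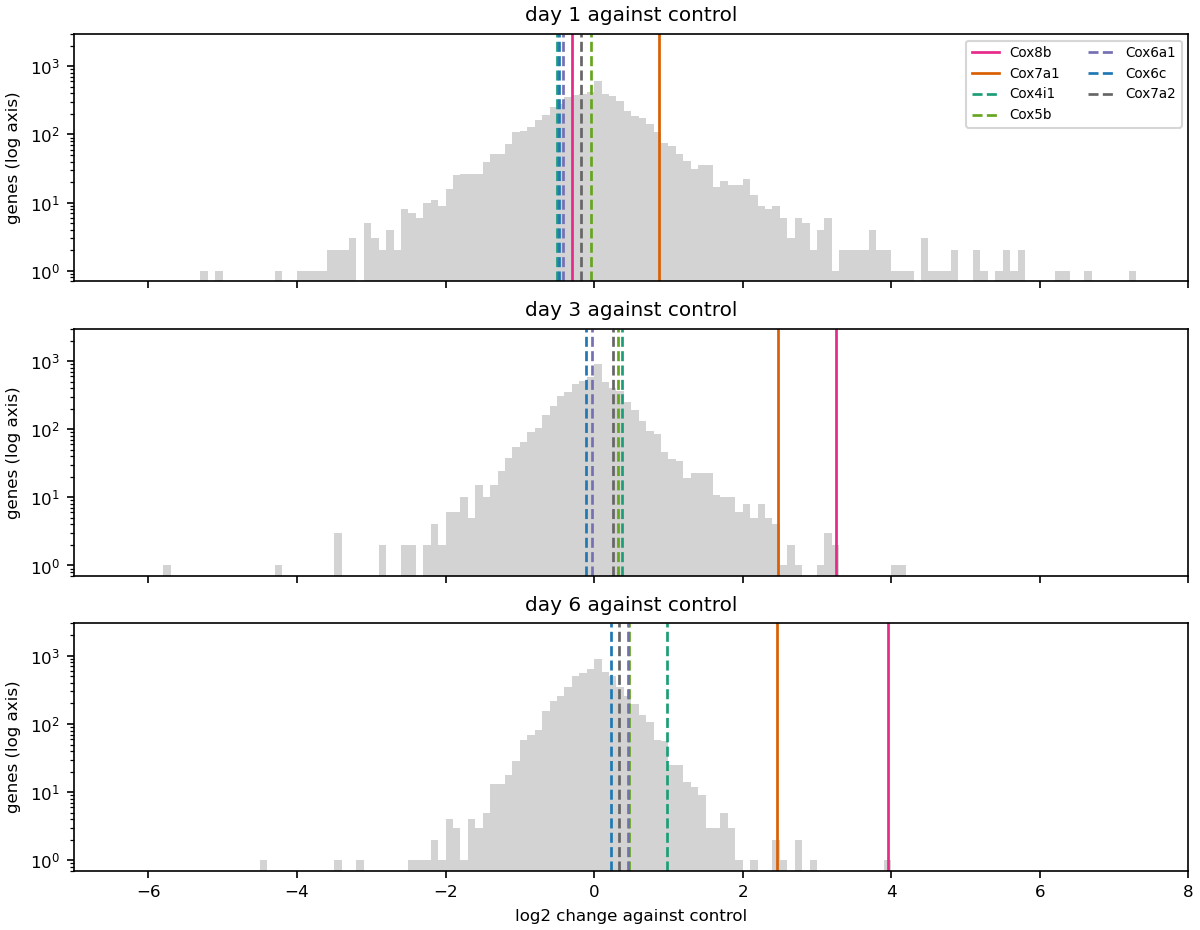
Histograms (log axis) of the log2 change against control of 6254 genes at days 1, 3 and 6, with vertical lines at the 7 members above the floor, solid for the muscle and brown fat isoforms and dashed for the ubiquitous subunits. At day 6 Cox8b, at 3.95, is the highest value at the floor used, while the ubiquitous subunits lie between 0.22 and 0.99.

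The isoforms of subunit VIIa were compared on the same arrays. The log2 change of Cox7a1 minus that of Cox7a2 came to at least 1.05 at day 1, at least 2.23 at day 3 and at least 2.13 at day 6. The measurement error of such a difference was 0.58, 0.43 and 0.43. At the floor used, the bounds at days 3 and 6 were more than 4 times that error. The error comes from probe sets above the floor on every array, which Cox7a1 was not, so it does not describe the bounds. Under that higher floor of 537 units the bounds were 0.60 and 0.50 at days 3 and 6. Set against the median of the 5 ubiquitous subunits, a comparison chosen after the values were seen, Cox8b differed by 0.12 at day 1, 3.01 at day 3 and 3.50 at day 6.

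Other subunits of the enzyme were read from a fixed list, of which 5 of 12 genes had a probe set with a single symbol. Cox7b, a small subunit of the enzyme, read 8965, 8482, 13212 and 12677 on the control, day 1, day 3 and day 6 arrays, and its log2 change was 0.56 at day 3 and 0.50 at day 6. Cox7a2l, which joins complexes III and IV into supercomplexes, read 4506, 3782, 5461 and 4325. Cox6b1, which bridges the monomers on the intermembrane side, read 435, 215, 355 and 355 by a probe set of the r type, and at day 1 it was 2.03-fold lower than control.

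The isoforms known from testis did not pass 2-fold on any treated day. Cox8c read 1819, 1414, 2214 and 2251, with its other probe set below 0 on every array. Cox6b2 read 287, 341, 433 and 242, and its other probe sets were above the floor on at most 1 array. The list as a whole had 1 of 5 genes at least 2-fold lower at day 1, against 8.36% of all genes. At days 3 and 6, 0 of 5 passed 2-fold in either direction. The shares of all genes were 3.81% and 1.73% higher, and 3.26% and 1.63% lower. The list's medians were -0.25, 0.28 and -0.06 on days 1, 3 and 6.

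Genes that assemble the enzyme and deliver its copper and heme stayed within 2-fold of control. Of 20 listed, 11 were measured and 9 were above the floor, and 0 of 9 passed 2-fold on any treated day. On days 1, 3 and 6, 7.5%, 3.81% and 1.73% of all genes were at least 2-fold higher. The shares at least 2-fold lower were 8.36%, 3.26% and 1.63%. The medians of the 9 genes were -0.26, -0.04 and 0.09 on days 1, 3 and 6. Surf1, an assembly factor, read 2204, 1216, 1878 and 2679 on the control, day 1, day 3 and day 6 arrays, and Cox17, a copper chaperone, 9081, 8377, 7288 and 7228. Both were named after their values were seen.

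Cytochrome c and complex III, which supply the electrons, were read from a list of 12 genes, 9 of them above the floor. None of the 9 passed 2-fold on any treated day, beside the shares of all genes just given for the assembly genes. At day 3 their median was 0.40 with 9 of 9 above 0, and at day 6 it was 0.52 with 9 of 9 above 0, beside 46.3% and 46.8% of all genes. Cycs, the cytochrome c gene, read 3173, 4187, 4276 and 4206, and its log2 change of 0.40 at day 1 was less than the measurement error of 0.41. Uqcr10, a small complex III subunit, read 10749, 11335, 16410.0 and 20219, a log2 change of 0.91 at day 6. Both were named after their values were seen.

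General mitochondrial genes, such as import, porin and chaperone genes, had a median log2 change of 0.18 at day 1, 0.21 at day 3 and 0.05 at day 6 over the 14 of 19 above the floor. Tomm40, the pore of the outer membrane import machine, was below the floor in control at 147 and read 571, 328 and 244 on the treated days. It was at least 3.29-fold higher at day 1, and 1 of the 14 was at least 2-fold higher on that day, against 7.5% of all genes. Its later folds, 1.89 at day 3 and 1.41 at day 6, are lower bounds, so whether it reached 2-fold is not known. At the floor used, 0 of the 14 passed 2-fold at days 3 and 6. Of all genes, 3.81% and 1.73% were at least 2-fold higher on those later days, and 3.26% and 1.63% lower.

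**Figure D4:**
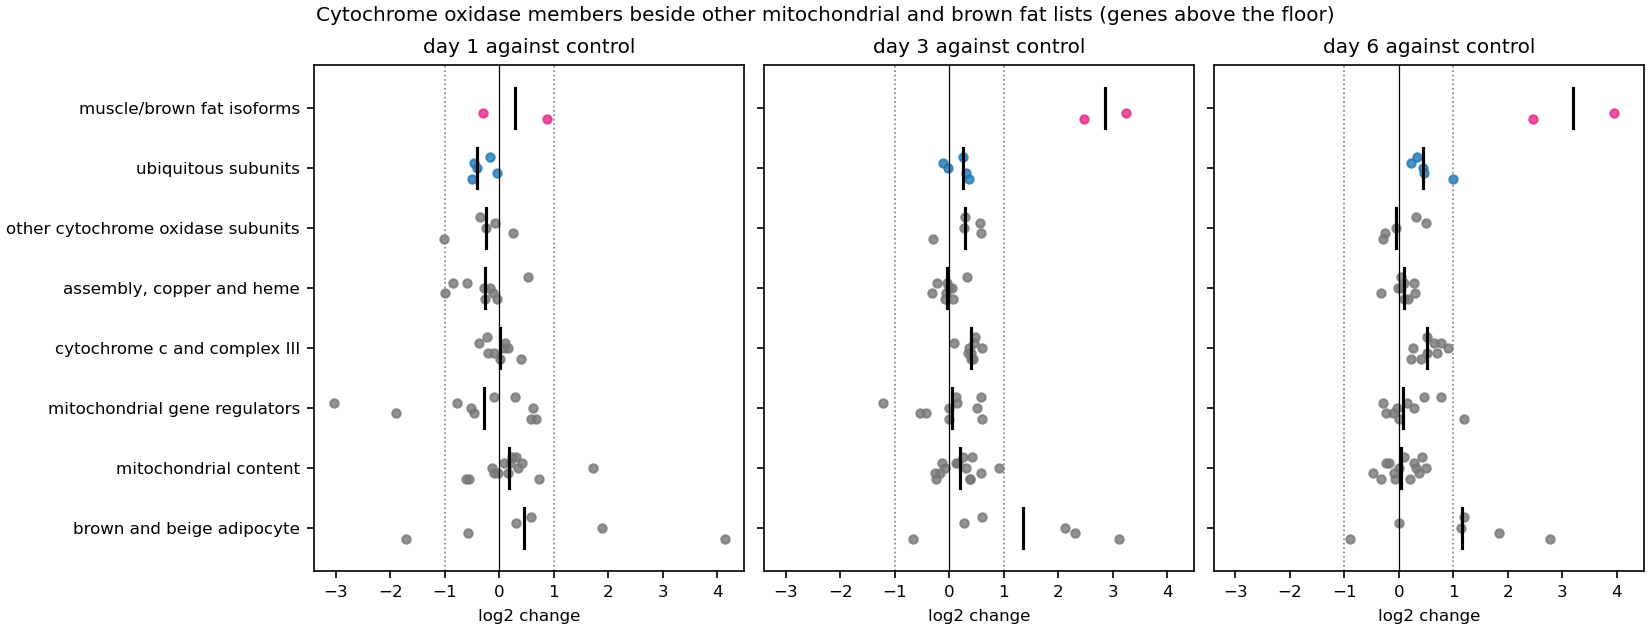
Log2 change against control of genes above the floor, by list (rows) and treated day (panels), each point a gene and each bar the list's median, with dotted lines at 2-fold. The 2 muscle and brown fat isoforms at days 3 and 6 stand at 2.46 or above, while assembly genes and cytochrome c with complex III stay within 2-fold.

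Regulators of mitochondrial genes were read from a list of 19, of which 10 were above the floor. Ppargc1a, the coactivator that drives mitochondrial genes in brown fat, was measured but below the floor on every array, as were Tfam, Esrrb and Ppard. Nrip1, a corepressor of oxidative genes in fat, read 1750, 214, 754 and 1435 on the control, day 1, day 3 and day 6 arrays. Nrip1 was thus 8.19-fold lower at day 1, 2.32-fold lower at day 3 and within 2-fold at day 6. Ppara, the nuclear receptor for fatty acids, read 382, 574, 578 and 877 and was 2.29-fold higher at day 6. Pparg, the fat cell nuclear receptor, read 4876, 1302, 3376 and 4522 and was 3.75-fold lower at day 1.

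Brown and beige fat genes did not share one time course with Cox8b. Ucp1, the uncoupling protein, read -14, 3054, 1502 and 1190.4 by its brighter probe set. It was highest at day 1, when Cox8b differed from control by less than the measurement error. Its bound was at least 17.6-fold at day 1, at least 8.65-fold at day 3 and at least 6.85-fold at day 6. Its other probe set read 41, 552, 348 and 142. Dio2, which activates thyroid hormone, read 197, 723, 859.5 and 433 and was 3.67-fold higher at day 1 and 4.36-fold at day 3. Cidea, a lipid droplet protein, read 266, 178, 1313 and 947, near control at day 1 and higher on both later days as Cox8b was. Ebf2, a transcription factor of brown fat precursors, read 1146, 348, 726 and 616 and was 3.29-fold lower at day 1. Of 12 brown genes measured, 6 passed the floor on some array, and the rest stayed below it. Of the 6, 2 were at least 2-fold higher at day 1, 3 at day 3 and 4 at day 6. Ppara is in the day 6 count. The shares of all genes were 7.5%, 3.81% and 1.73%. Ucp1 is counted only through its treated arrays. Elovl3, also below the floor in control, read 50, 215, 209 and 45, so whether it reached 2-fold is not known.

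The genes nearest to Cox8b in their 3 log2 changes against control were sought among 5297 genes that reached 2 times the floor. The distance is the Euclidean distance of the 3 log2 changes, which all share the control array. At the floor used, the 5 nearest outside the members were Cidea at 2.34, Apoc4, an apolipoprotein gene, at 2.35, Tyms-ps, a pseudogene of thymidylate synthase, at 2.45, the linker histone H1f10 at 2.58 and Slc27a1, a fatty acid transporter, at 2.84. Apoc4 read 23 in control, below the floor, so its distance is set by the floor. At the lower floor, the 25th percentile, Cidea and Apoc4 were still among the 5 nearest and the others were not. At the 60th percentile, Tyms-ps, H1f10 and Slc27a1 were among the 5 nearest, and Cidea and Apoc4 were not. At a floor of 1 unit, Cidea, Tyms-ps and H1f10 were among them, and Apoc4 and Slc27a1 were not. None of the 5 was thus among the nearest under every floor. The control value of Cox7a1 was below the floor too, so no order of genes near it is read. At the floor used the 5 nearest to Cox7a1 were the proprotein convertase Pcsk4, the chemokine Ccl8, Apoc4, the nuclear receptor gene Nr1d2 and Slc27a1. At the 25th percentile Apoc4 alone of these was among the nearest 5.

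Since Cox7a1 and Cox8b are also muscle genes, muscle markers were read on the same arrays. Of 24 measured skeletal muscle markers, 9 were below the floor on every array, among them Ckm, Mb, Myh1, Myh2, Tnni2 and Tnnt3. The other 15, some of them given below, exceeded it in 1 group or more. The summed level of the list was 11719.9 in control, 9914 at day 1, 10701 at day 3 and 11179.6 at day 6. On each treated day 0 of the 15 above the floor rose by 2-fold or more, and 1 was lower by 2-fold or more. Of all genes, 7.5%, 3.81% and 1.73% were at least 2-fold higher on days 1, 3 and 6, and 8.36%, 3.26% and 1.63% lower. The skeletal actin Acta1 read 1492, 2377, 212 and 168. Other muscle genes did not share its order: the myosin light chain Myl1 read 3865, 1089, 3239 and 3646, and the calcium-binding Pvalb 1897, 2197, 2519.5 and 2039.7. The slow muscle troponin Tnni1 read 978, 1084, 1106 and 1135, and the Z-disc gene Myoz1 345, 523, 589 and 656, highest at day 6 as Cox8b was. These 4 were named after their values were seen, and the part of muscle RNA in the rise of Cox8b and Cox7a1 was not tested. Of 13 heart markers, 8 were below the floor on every array, among them Myh6, Tnni3, Tnnt2 and Myl2, and the list summed to 4689, 3984, 3817 and 3169. Nppa, a natriuretic peptide gene of the heart, was the single heart marker at least 2-fold higher on any treated day and read 221, 530.1, 464 and 518.

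The makeup of the tissue differed between the arrays, and in bulk tissue fewer cells of a type and less RNA per cell cannot be told apart. White fat cell markers summed to 379165 in control, 216434 at day 1, 330263 at day 3 and 372177 at day 6. At day 1, 7 of 14 were at least 2-fold lower, against 8.36% of all genes. Macrophage and myeloid markers summed to 36613, 103279, 92328 and 47361. Of these, 10 of 15 were at least 2-fold higher at day 1 and 8 of 15 at day 3, against 7.5% and 3.81% of all genes. By their brighter probe sets, the 5 ubiquitous subunits above the floor were lowest on the day 1 array, where the summed fat cell markers were lowest too. The other probe set of Cox4i1 was lowest at day 3, as were Nnat and Fabp4 among the fat cell markers. The part of these shifts in the subunits' changes was not tested.

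Epididymis and testis markers also differed between arrays. Lcn5 and Gpx5, secreted proteins of the epididymis, read 3322 and 6713 in control. They read 63 and 179 at day 1, then 7 and 622 at day 3, and 8031 and 302 at day 6. The list of 12 measured genes, 7 of them above the floor on at least 1 array, summed to 12006, 2140.4, 2575 and 11303. Crisp2, Prm2, Akap4, Pgk2 and Ldhc were below the floor on every array. Whether RNA from the epididymis added to the values of the subunits in control and at day 6 was not tested.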

How the data were processed

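The deposited files hold 1 intensity per probe set of an Affymetrix mouse array, on a linear scale, in whole numbers of which 12.1% to 12.4% per array are at or below 0. The authors' software, background step and normalization were not given in the sources used here, and all 4 columns have nearly equal quartiles. After 66 control probe sets were left out, a factor per array (0.998 to 1.001) equalised the means of values from the 2nd to the 98th percentile. Values under the 40th percentile were set to it as a floor, and log2 was taken. Between 59.9% and 60.1% of probe sets per array lay above the floor.

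Of 12422 probe sets, 10833 had 1 symbol, 396 several and 1193 none listed; all 10 members matched RefSeq by Entrez identifier. Where a gene had several probe sets, the brightest over the 4 arrays stands for it. With 1 array per group no test was run. Named besides the members were all other listed oxidase subunits, up to 4 genes of each list (those past 2-fold, by size), and 5 nearest genes. Surf1, Cox17, Cycs, Uqcr10, Elovl3, Myl1, Pvalb, Tnni1, Myoz1 and the other cell type markers given were named outside that rule, after their values were seen. The members and lists were chosen with earlier results of these data known. Python 3.11.15, numpy 2.4.6 and pandas 2.3.3 were used. The method was tested on simulated data, and 8 alternatives in floor, scaling and probe set were run.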

Additional observations from a re-analysis of the deposited data

Results flagged for a closer look

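For 6 members the change against control at day 1 went the opposite way to that at a later day; with 1 array per group the difference was not tested, and the comparisons share the control array. Cox8b had a log2 change of -0.30 at day 1, 3.25 at day 3 and 3.95 at day 6. Cox4i1 had -0.49 at day 1, 0.37 at day 3 and 0.99 at day 6 by its brighter probe set, and -0.15, -0.47 and 0.13 by the other. Cox5b had -0.048 at day 1, 0.32 at day 3 and 0.47 at day 6. Cox7a2 had -0.18, 0.25 and 0.33 on these days. Cox6a1 had -0.42 at day 1 and 0.45 at day 6, and Cox6c -0.47 and 0.22. For Cox8b, Cox5b and Cox7a2 the day 1 value was smaller than the measurement error of 0.41. The day 6 value of Cox6c and the day 3 value of Cox7a2 were smaller than the error of 0.30 on those days.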

How the results depend on the processing

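No paired analysis was possible because each group had 1 array. Of 371 values recomputed under 8 alternatives in floor, scaling and probe set, 335 moved by less than the measurement error or, for counts, by at most 1.5 times, and none of the 2-fold calls reversed. No scaling, quantile normalization and median scaling moved no value beyond these limits. The floor moved Cox7a1, whose control value lay below it. Under a floor at the 25th percentile, Cox7a1 minus Cox7a2 was 2.63, 3.81 and 3.71 on days 1, 3 and 6, and under a floor of 1 intensity unit it was 2.68, 3.86 and 3.76. Under a floor at the 60th percentile it was 0.18, 0.60 and 0.50. The number of members at least 2-fold higher at day 1 was 0; it became 1 under a floor at the 25th percentile and 2 under a floor of 1 unit. At day 3 it was 3 against 2 under both of these floors, the third being Cox6a2. Under a floor at the 60th percentile, 1 member was at least 2-fold higher at day 3 and 1 at day 6, against 2. Under a floor of 1 unit, 1 member was at least 2-fold lower at day 1 and 1 at day 6, against 0; values below the floor then count. Ranks of Cox8b and its nearest genes were recomputed under the other floors after the data were seen; at a floor of 1 unit it ranked 280 at day 3 and 221 at day 6 of 8016 genes. By the dimmest probe set, Cox8b had a log2 change of 2.58 at day 3 and 3.61 at day 6, and Cox4i1 -0.47 and 0.13. Cox5a, Cox6a2 and Cox8a were too dim for a change at the floor used.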
